A study of Homo sapiens with 9 samples.

Results

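The BCL2 family decides whether the mitochondrial outer membrane is opened during apoptosis. The report covers 10 of its genes, BCL2, BCL2L1, MCL1, BCL2A1, BAX, BAK1, BCL2L11, BBC3, PMAIP1 and BID, taken by gene symbol from the 48162 genes of the deposited tables. All 10 were among the 15776 genes with enough counts to be tested. Gene expression was read by RNA sequencing in SKMEL28, a human melanoma cell line, in 9 libraries. Lentivirus carrying a short hairpin RNA against GFP gave the control cells (shCont, 3 libraries), a hairpin against p16 gave shp16 cells (3 libraries), and hairpins against p16 and ATR together gave shp16+shATR cells (3 libraries). All cells were kept in 5% fetal bovine serum and selected with 1 ug/ml puromycin for 3 days. The study describes its mRNA values of lanosterol synthase as technical replicates of 1 experiment. Its sequencing methods do not say whether the libraries came from separate cultures. A p-value here thus measures the spread between those libraries and cannot be taken as the spread between separate cultures. Which ATR hairpin was sequenced, and whether shp16 cells received a control virus in its place, is not given in the sources used here, so the added hairpin and an added virus cannot be told apart. In bulk RNA, fewer cells of a type and less RNA per cell cannot be told apart either.

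The proteins of the family fall into groups by role. The guardians BCL2, BCL-XL (from BCL2L1), MCL1 and BFL-1 (from BCL2A1) keep cells alive by binding the other members. The effectors BAX and BAK (from BAK1) form pores in the outer membrane, and the BH3-only proteins BIM (from BCL2L11), PUMA (from BBC3), NOXA (from PMAIP1) and BID occupy the guardians or activate the effectors. Cytochrome c that leaves through the pores meets APAF1 and starts caspase-9. BCL2A1 is known in melanocytic cells as a target of MITF, the lineage transcription factor, and BCL2L11 is a known target of FOXO factors. MCL1, BIM, NOXA and BID are also controlled at the protein level, which RNA counts do not show.

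Promoters of BCL2A1 and BCL2L11 are printed because, of the 10 genes, BCL2A1 had the lowest and BCL2L11 the highest fold change of shp16 over shCont. Both are RefSeq sequence of build GRCh38.p14, running from 250 bases before to 50 bases after the annotated start, in the direction of transcription. BCL2A1 lies at chr15:79971147-79971446 on the minus strand and BCL2L11 at chr2:111120664-111120963 on the plus strand. Capitals mark the M-box core CATGTG that MITF-type factors can bind in BCL2A1, and the forkhead motif GTAAACA in BCL2L11.
BCL2A1: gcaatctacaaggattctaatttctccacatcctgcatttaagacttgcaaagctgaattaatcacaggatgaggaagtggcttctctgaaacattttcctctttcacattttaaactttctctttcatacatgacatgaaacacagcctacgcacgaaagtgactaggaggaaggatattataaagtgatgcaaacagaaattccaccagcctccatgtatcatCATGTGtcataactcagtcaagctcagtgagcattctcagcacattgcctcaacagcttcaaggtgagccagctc
BCL2L11: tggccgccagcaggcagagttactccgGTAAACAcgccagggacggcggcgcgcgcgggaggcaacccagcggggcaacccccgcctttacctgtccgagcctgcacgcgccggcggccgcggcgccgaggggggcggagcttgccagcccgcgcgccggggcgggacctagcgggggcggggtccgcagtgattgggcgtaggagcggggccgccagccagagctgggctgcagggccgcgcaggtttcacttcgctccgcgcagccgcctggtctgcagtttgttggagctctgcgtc
The motif of BCL2A1 begins 25 bases before the start and that of BCL2L11 begins 223 bases before it. CATGTG was found in 11.1% of 35116 promoters of this length, the E-box CACGTG in 7.26% and GTAAACA in 3.42%, each on either strand. RefSeq gave 14 promoters for 9 of the 10 genes, and MCL1 had no entry. Of the others, BAX held 4 CACGTG matches and BBC3 held 1. Of the 5 BID promoters, 2 that overlap shared 1 CACGTG at the same position in the genome, and 1 held 1 CATGTG. The promoters of BCL2, BCL2L1, BAK1 and PMAIP1 held none of the 3 motifs. A match is a string of letters and was not tested as a binding site.

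Libraries held 17314662 to 23588174 counts. CDKN2A, the gene of p16, was at 121.2, 91.0 and 81.02 FPKM in shCont replicates 1, 2 and 3, at 57.12, 74.77 and 79.85 FPKM in shp16, and at 64.46, 71.19 and 63.1 FPKM in shp16+shATR. FPKM scale each count by the length of the gene and the total of the library. The shp16 libraries were thus lower than the shCont libraries without overlap, but by only a little for the nearest pair, and the fall did not pass the test (log2 fold change -0.48, SE 0.163, adjusted p = 0.0723, edgeR). Against shCont, the fall in shp16+shATR passed it (-0.57, SE 0.163, adjusted p = 0.0263). That call held under 14 of 19 alternative fits, and those that lost it include leaving out any 1 shp16+shATR library. The gene counts also hold transcripts of ARF, another protein of this locus. ATR was at 5.345, 11.76 and 11.78 FPKM in shCont, at 10.37 to 10.64 FPKM in shp16 and at 4.845 to 4.919 FPKM in shp16+shATR. It was lower in shp16+shATR than in shp16 (log2 fold change -1.12, SE 0.22, adjusted p = 0.0128, edgeR). That call held under 14 of 19 alternative fits, with adjusted p up to 0.0707. Those that lost it include leaving out shp16 replicate 1 or any 1 shp16+shATR library. The library labelled shCont 1 stood apart from its group, with ATR at the level of the knockdown, a median absolute log2 deviation from the group of 0.398 against 0.203 and 0.255 for the other shCont libraries, and deviations that went with gene length (Spearman rho -0.386 across genes) and GC content (0.475). Leaving it out lowered the biological coefficient of variation from 0.149 to 0.0901, and each comparison is given with and without it. The library shp16 1 held 7.237% mitochondrial counts against 4.249% to 6.561% elsewhere, and its 8 melanoma markers summed to 2558 FPKM against 4014 to 5455 FPKM. That sum is weighted to PMEL, the most abundant of them, at 1109 FPKM there against 2917 and 2888 FPKM in shp16 2 and 3. Of the rest, MITF was higher there (160.6 against 146.7 and 142.5 FPKM) and the others were lower than in shp16 2 and 3. All 8 melanoma markers had counts in every library. TYRP1 fell in shp16 against shCont (-0.43, adjusted p = 0.0228), in shp16+shATR against shp16 (-0.88, adjusted p = 0.0014) and in shp16+shATR against shCont (-1.31, adjusted p = 1.41e-05), S100B fell in the first (-0.68, adjusted p = 0.013) and rose between the knockdown groups (0.67, adjusted p = 0.0254), and the other markers were not called. Leaving out 1 library ended the call of TYRP1 in shp16 against shCont in 4 of 9 fits and the calls of S100B in 1 and 6 of 9. Of 11 measured markers of other cell types, PTPRC and CD3E had 0 counts in every library. The summed level of the 11 was 0.306 to 0.557 FPKM in shCont, 2.564 to 2.992 FPKM in shp16 and 1.494 to 2.866 FPKM in shp16+shATR, with the keratinocyte gene KRT5 at 0 counts in shCont and at up to 63 counts in the other libraries. Of 3 such markers with enough counts to test, KRT5 and KRT14 rose in both knockdown groups against shCont and DCN in shp16+shATR (lost in 4 of 9 fits). The part of these differences in the results was not tested.

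BCL2A1 was the most abundant of the 10 genes on the per-length FPKM scale in all 3 groups and BCL2 the least. In shCont the order of mean levels was BCL2A1, BAX, MCL1, BCL2L1, BID, BAK1, BBC3, BCL2L11, PMAIP1 and BCL2, and in shp16+shATR it was BCL2A1, MCL1, BAX, BCL2L1, BAK1, BBC3, BCL2L11, BID, PMAIP1 and BCL2. Neighbours in the shCont order whose libraries overlapped were BAX and MCL1, MCL1 and BCL2L1, BID and BAK1, BAK1 and BBC3, and BCL2L11 and PMAIP1. In shp16+shATR no neighbours overlapped. BID, the BH3-only protein cleaved by caspase-8, thus moved in mean level from above BAK1, BBC3 and BCL2L11 to below all of them.

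Among the guardians, BCL2A1 (ENSG00000140379, chr15:80253231-80263788 in the coordinates of the deposited tables, which are those of GRCh37) was at 135.4, 114.9 and 106.2 FPKM in shCont, at 56.46, 65.89 and 65.83 FPKM in shp16, and at 73.13, 71.67 and 72.33 FPKM in shp16+shATR. Every shCont library was above every other library, and every shp16+shATR library was above every shp16 library. BCL2L1 (ENSG00000171552, chr20:30252255-30311792) was at 34.44, 33.21 and 31.66 FPKM in shCont, at 24.53, 25.33 and 24.18 FPKM in shp16, and at 24.63, 25.79 and 26.06 FPKM in shp16+shATR. It too was higher in all shCont libraries, while both knockdown groups overlapped. MCL1 (ENSG00000143384, chr1:150547032-150552066), a guardian with a short-lived protein, was at 27.9, 41.26 and 41.7 FPKM in shCont, at 29.68, 37.71 and 36.77 FPKM in shp16, and at 48.37, 48.49 and 48.39 FPKM in shp16+shATR. The shp16+shATR libraries lay above all others and shCont 1 and shp16 1 lay lowest. BCL2 itself (ENSG00000171791, chr18:60790579-60987361), the founding member, was at 1.415, 2.408 and 2.362 FPKM in shCont, at 2.442, 2.38 and 2.225 FPKM in shp16 and at 2.136, 2.125 and 2.099 FPKM in shp16+shATR. The shCont 1 value lay farthest from the rest, and the shp16+shATR libraries lay below the shp16 libraries by a small distance. Genes that overlap BCL2 or BCL2L1 in the annotation had at most 21 counts in any library.

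The effector BAX (ENSG00000087088, chr19:49458072-49465055) was at 61.72, 49.54 and 40.87 FPKM in shCont, at 35.66, 50.44 and 51.25 FPKM in shp16, and at 43.42, 44.24 and 38.23 FPKM in shp16+shATR. The 3 groups overlapped, and the highest and lowest values were those of shCont 1 and shp16 1. BAK1 (ENSG00000030110, chr6:33540329-33548019) was at 14.79, 11.95 and 9.997 FPKM in shCont, at 16.63, 15.46 and 18.09 FPKM in shp16, and at 14.84, 15.52 and 16.12 FPKM in shp16+shATR. All 6 knockdown libraries were above the shCont libraries on this scale, shCont 1 by the smallest distance. Its pseudogenes BAK1P1 and BAK1P2 had at most 14 counts.

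The BH3-only gene BCL2L11 (ENSG00000153094, chr2:111876955-111926024) was at 3.818, 5.681 and 4.763 FPKM in shCont, at 7.357, 7.853 and 7.511 FPKM in shp16, and at 11.03, 10.75 and 10.31 FPKM in shp16+shATR. The groups formed 3 separate steps. BID (ENSG00000015475, chr22:18216906-18257536) was at 18.33, 11.06 and 12.67 FPKM in shCont, at 7.974, 10.13 and 9.587 FPKM in shp16 and at 6.209, 6.799 and 5.514 FPKM in shp16+shATR, 3 separate steps in the other direction. BBC3 (ENSG00000105327, chr19:47724081-47736023), which encodes PUMA, was at 12.34, 10.09 and 9.617 FPKM in shCont, at 9.225, 14.69 and 16.51 FPKM in shp16, and at 12.79, 14.74 and 12.57 FPKM in shp16+shATR. Its shp16 libraries spanned the range of both other groups. PMAIP1 (ENSG00000141682, chr18:57567180-57571538), which encodes NOXA, the partner of MCL1, was at 3.003, 4.734 and 4.033 FPKM in shCont, at 3.151, 4.77 and 4.44 FPKM in shp16, and at 3.706, 4.418 and 4.756 FPKM in shp16+shATR. Its groups overlapped throughout. It had the fewest counts of the 10 genes, 125 to 196 a library.

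**Figure D1:**
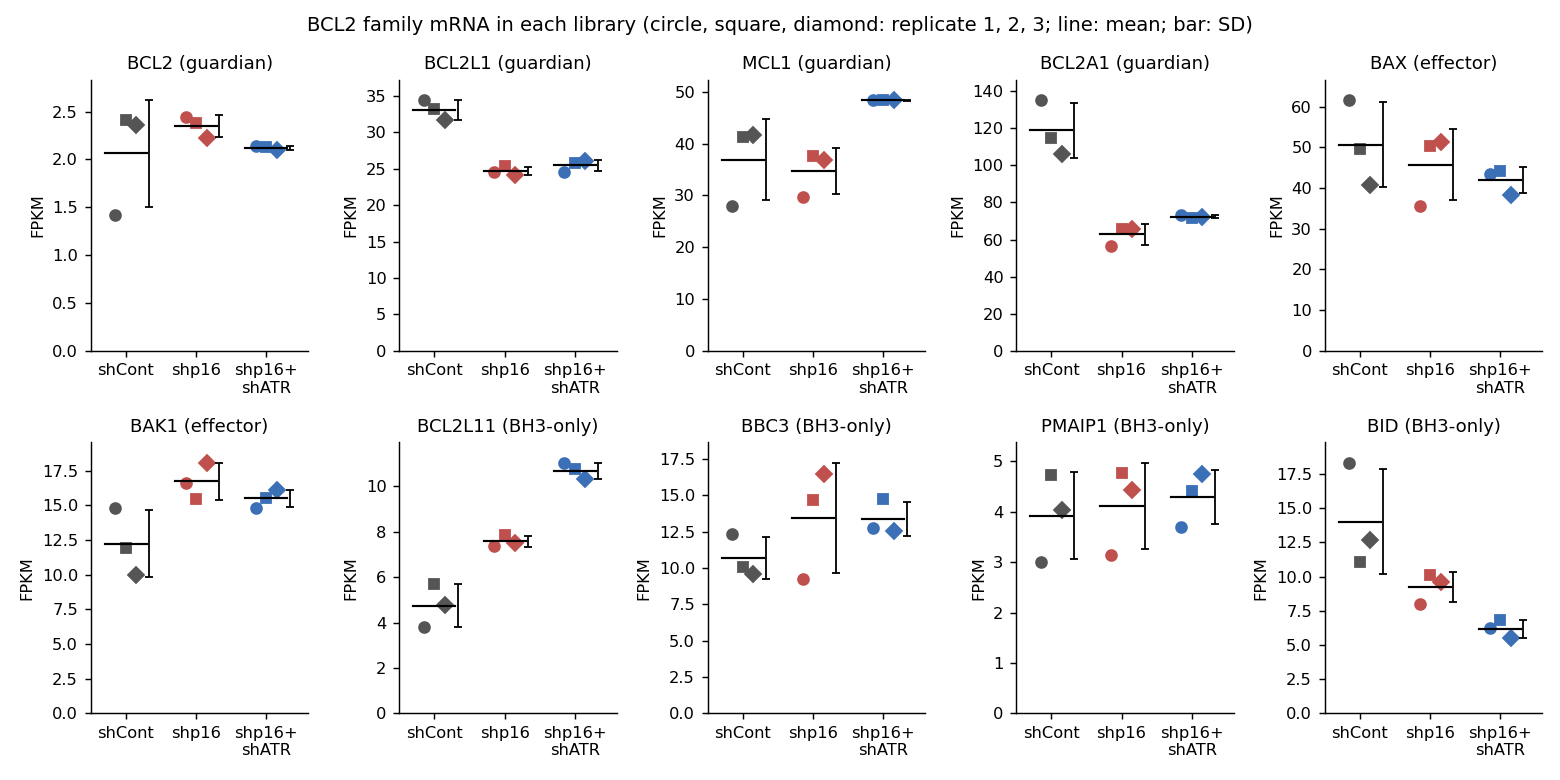
FPKM (y axis) of each of the 10 genes in the 9 libraries, by group (x axis), with the mean as a line and the SD as a bar. BCL2L11 steps up from 4.754 to 7.574 to 10.69 FPKM in the group means and BID steps down from 14.02 to 9.229 to 6.174 FPKM, while BCL2A1 falls from 118.9 FPKM in shCont to 62.72 FPKM in shp16.

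Summed over the 4 guardians, the level was 191.0 ± 8.63 FPKM (SD, n = 3) in shCont, 124.5 ± 9.91 FPKM in shp16 and 148.4 ± 0.416 FPKM in shp16+shATR cells. The ranges did not overlap, at 182.0 to 199.2, 113.1 to 131.3 and 148.1 to 148.9 FPKM. Of the guardian sum, BCL2A1 made up 62.1% ± 5.16, 50.37% ± 0.569 and 48.77% ± 0.473 in the same order of groups, and MCL1 made up 19.47% ± 4.79, 27.8% ± 1.39 and 32.6% ± 0.1. The 4 BH3-only genes summed to nearly the same level in each group, 33.38 ± 3.57, 34.4 ± 5.8 and 34.53 ± 1.91 FPKM, with a changed makeup. Of the BH3-only sum, BCL2L11 was 14.5% ± 3.96, 22.43% ± 3.67 and 31.03% ± 1.7, and BID was 41.57% ± 6.98, 27.03% ± 1.8 and 17.83% ± 1.07. The 2 effectors summed to 62.95 ± 12.9, 62.51 ± 9.02 and 57.46 ± 2.79 FPKM, with overlapping ranges. The ratio of the guardian to the BH3-only sum was 5.31, 6.08 and 5.85 in shCont, 4.08, 3.51 and 3.39 in shp16, and 4.4, 4.03 and 4.49 in shp16+shATR. The shCont ratios lay above all others, and the shp16 and shp16+shATR ratios overlapped. Such sums are of RNA and say nothing of the amounts of protein.

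**Figure D2:**
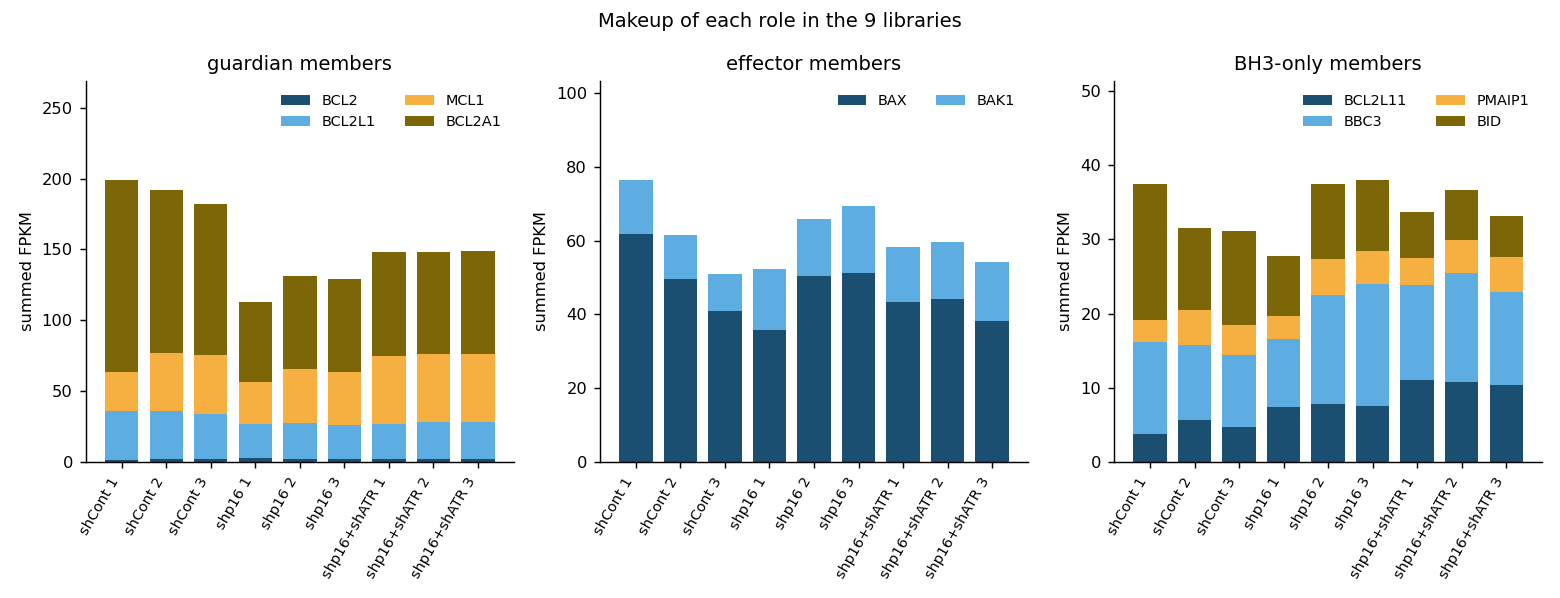
Summed FPKM (y axis) of the guardian, effector and BH3-only genes in each of the 9 libraries (x axis), with each gene as a coloured part of the bar. The guardian bars are shorter in shp16 than in shCont mainly in their BCL2A1 part, and the BH3-only bars hold more BCL2L11 and less BID in shp16+shATR at a similar height.

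The comparison of shp16 with shCont asks which genes differ after the hairpin against p16. BCL2A1, BCL2L1 and BID fell and BCL2L11 rose, 4 of the 10 genes at an adjusted p under 0.05 (edgeR quasi-likelihood test, adjusted over all genes tested). BCL2A1 was 1.89-fold lower (log2 fold change -0.92, SE 0.12, adjusted p = 0.000432), BID 1.53-fold lower (-0.61, SE 0.187, adjusted p = 0.048) and BCL2L1 1.33-fold lower (-0.42, SE 0.101, adjusted p = 0.0183). BCL2L11 was 1.61-fold higher (0.69, SE 0.122, adjusted p = 0.00317). The 4 genes were also those whose libraries did not overlap between the groups in CPM, counts scaled by the normalized library total. Over all genes tested, 14.8% were called (7.23% higher and 7.59% lower), and 33.6% did not overlap. Of the calls over all genes 48.8% were higher, and 38.5% with upper-quartile normalization. The median log2 fold change of the 10 genes was 0.001, beside -0.016 over all genes tested.

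The remaining 6 genes did not pass the test in this comparison. BAK1 had a log2 fold change of 0.45 (SE 0.153, adjusted p = 0.0701) and BBC3 of 0.32 (SE 0.181, adjusted p = 0.259). BCL2 was at 0.21 (95% interval -0.16 to 0.58), PMAIP1 at 0.08 (-0.33 to 0.49), MCL1 at -0.08 (-0.37 to 0.21) and BAX at -0.15 (-0.52 to 0.21), intervals that leave room for changes of either sign. Without shCont 1, 6 of the 10 genes were called, beside 25.9% of all genes. BAK1 (0.64, adjusted p = 0.00114) and MCL1 (-0.23, adjusted p = 0.0452) joined the 4, whose log2 fold changes became -0.79 for BCL2A1, -0.36 for BCL2L1, 0.57 for BCL2L11 and -0.34 for BID. The call of BCL2A1 held under all 20 alternatives and that of BCL2L11 under 19 of 20. The call of BCL2L1 was lost on leaving out shp16 2 (adjusted p = 0.0711) or shp16 3 (0.0866). The call of BID was lost on leaving out shp16 1 (0.153), shp16 2 (0.096), shp16 3 (0.119) or any 1 of the shp16+shATR libraries (0.0687 to 0.072). In all, the call of BCL2L1 held under 16 of 20 alternatives and that of BID under 8 of 20, so BID was lost more often than kept. For BID these include library size alone (0.0526), only the groups compared (0.109) and limma on log2 FPKM (0.072 and 0.0715). An exact permutation test of 3 against 3 libraries cannot go below p = 0.1, the value that all 4 genes reached.

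**Figure D3:**
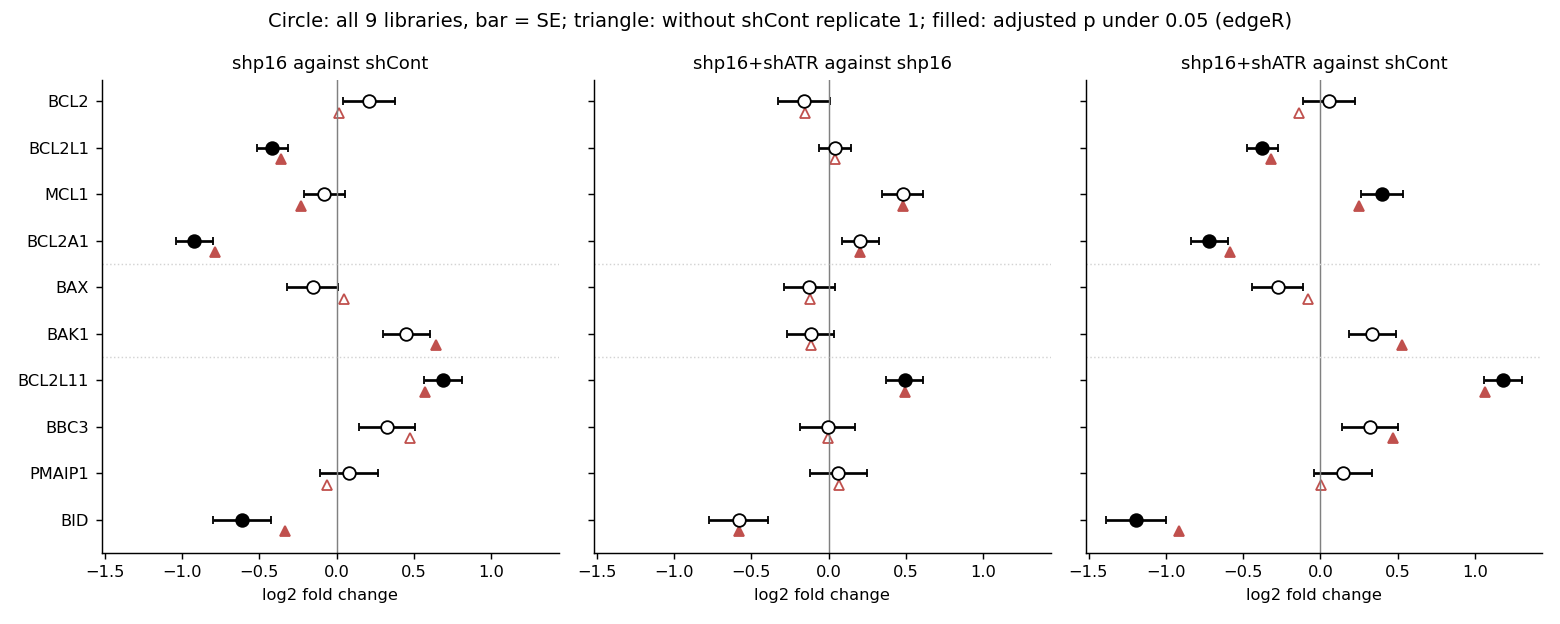
Log2 fold change (x axis) of each of the 10 genes in the 3 comparisons. Circles are the estimates from all 9 libraries with bars of 1 SE, triangles those without shCont 1, and filled symbols have an adjusted p under 0.05. BCL2A1 and BCL2L1 are left of 0 in both comparisons with shCont, BCL2L11 is right of 0 in all 3, and more triangles than circles are filled.

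The comparison of shp16+shATR with shp16 asks what the added ATR hairpin changes in p16 knockdown cells. It uses the same shp16 libraries as the comparison before it, so the comparisons are not independent. A deviation of those libraries would move a gene in opposite directions in them. BCL2L11 was 1.41-fold higher again (log2 fold change 0.49, SE 0.12, adjusted p = 0.0332, edgeR) and was the only one of the 10 genes called, beside 6.22% of all genes (2.73% higher and 3.49% lower). Of the calls over all genes 43.8% were higher, and 54.2% with upper-quartile normalization. MCL1 was at 0.48 (SE 0.134, adjusted p = 0.0568) and BID at -0.58 (SE 0.191, adjusted p = 0.102), effects of a size like that of BCL2L11 with a larger spread. These 3 were also the genes with an unadjusted p under 0.05, with 2 of them higher and 1 lower. Neither guardian that differed between shp16 and shCont passed the test here: BCL2A1 was at 0.20 (SE 0.12, adjusted p = 0.383) and BCL2L1 at 0.04 (95% interval -0.18 to 0.26). The effectors BAX (-0.12, -0.49 to 0.24) and BAK1 (-0.12, -0.45 to 0.22) and the BH3-only genes BBC3 (-0.01, -0.40 to 0.39) and PMAIP1 (0.06, -0.34 to 0.47) were not called, nor was BCL2 (-0.16, -0.52 to 0.21).

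Libraries of the groups did not overlap for 5 of the 10 genes, with MCL1, BCL2A1 and BCL2L11 higher and BCL2 and BID lower, beside 37.7% of all genes. The median log2 fold change of the 10 was 0.018, beside 0.0021 over all genes tested. Without shCont 1, which is in neither group but in the shared estimate of the spread, 4 of the 10 genes were called, beside 19.9% of all genes. They were BCL2L11 (0.49, adjusted p = 0.000679), MCL1 (0.48, adjusted p = 0.000511), BID (-0.58, adjusted p = 0.00164) and BCL2A1 (0.20, adjusted p = 0.0355). The log2 fold changes of these 4 were thus nearly the same with and without that library. In the other direction, the call of BCL2L11 was lost on leaving out any 1 library of the groups compared, with adjusted p of 0.0808 without shp16 1, 0.118 without shp16 2, 0.133 without shp16 3 and 0.105 to 0.149 without 1 shp16+shATR library. Its log2 fold change stayed between 0.46 and 0.51 in these fits. The call held under 9 of 19 alternatives in all, and was also lost with library size alone (0.0554) and limma on log2 FPKM (0.0671 and 0.0797). Without shp16 1, MCL1 was at 0.41 (adjusted p = 0.179).

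The comparison of shp16+shATR with shCont sets both hairpins against the control and shares its libraries with the other comparisons. BCL2L11 was 2.26-fold higher (log2 fold change 1.18, SE 0.122, adjusted p = 5.07e-05, edgeR) and BID 2.29-fold lower (-1.19, SE 0.191, adjusted p = 0.000991). BCL2A1 was 1.64-fold lower (-0.72, SE 0.12, adjusted p = 0.00131) and BCL2L1 1.3-fold lower (-0.38, SE 0.101, adjusted p = 0.019), while MCL1 was 1.32-fold higher (0.40, SE 0.134, adjusted p = 0.0492). In all, 2 of the 10 genes rose and 3 fell, beside 23.6% of all genes called (10.9% higher and 12.7% lower). Libraries did not overlap for these 5 genes either, beside 41.5% of all genes. The guardians thus divided, with BCL2A1 and BCL2L1 lower and MCL1 higher, and so did the BH3-only genes, with BCL2L11 higher and BID lower. The median of the 10 genes was 0.1, beside -0.018 over all genes tested.

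The 5 other genes were not called in shp16+shATR against shCont. BAK1 was at 0.34 (SE 0.153, adjusted p = 0.138), BBC3 at 0.32 (SE 0.181, adjusted p = 0.233), BAX at -0.28 (SE 0.166, adjusted p = 0.258), PMAIP1 at 0.15 (95% interval -0.26 to 0.55) and BCL2 at 0.05 (-0.32 to 0.42). Without shCont 1, 7 of the 10 genes were called, beside 33.3% of all genes. BAK1 (0.53, adjusted p = 0.00242) and BBC3 (0.47, adjusted p = 0.0459) joined the 5, and BID moved to -0.92. BCL2A1, BCL2L11 and BID were called under all 19 alternatives. BCL2L1 was lost on leaving out any 1 shp16+shATR library (adjusted p = 0.0524 to 0.0998). MCL1, whose adjusted p lay just under the threshold, was lost without shCont 2 (0.0619), shp16 2 (0.0729), shp16 3 (0.0753) or any 1 shp16+shATR library (0.117 to 0.137). Its call held under 7 of 19 alternatives in all, and was also lost with upper-quartile normalization (0.0514), library size alone (0.0931), only the groups compared (0.083) and limma on log2 FPKM (0.0856 and 0.0875). That of BCL2L1 held under 15 of 19.

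Beyond the 10 genes, 62 further genes of the apoptosis pathway were listed in 6 groups, and 58 were tested. In shp16 against shCont 8 rose and 2 fell, in shp16+shATR against shp16 3 rose and 7 fell, and in shp16+shATR against shCont 6 rose and 8 fell. The called shares were 17.2%, 17.2% and 24.1% of the 58, beside 14.8%, 6.22% and 23.6% of all genes tested, so in both comparisons with shCont the share was near that of all genes. Without shCont 1 the numbers were 8 and 6, 5 and 13, and 8 and 13, shares of 24.1%, 31.0% and 36.2% beside 25.9%, 19.9% and 33.3%.

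Of 11 tested relatives of the family, the BH3-only genes HRK and BMF rose in all 3 comparisons, as BCL2L11 did. HRK, which encodes Harakiri, was at 0.1025, 0.2118 and 0.1914 FPKM in shCont, at 0.3198, 0.479 and 0.5614 FPKM in shp16, and at 1.028, 0.9937 and 1.018 FPKM in shp16+shATR. It is a low gene, with 14 to 131 counts a library, and its groups formed 3 separate steps. Its log2 fold change was 1.45 (SE 0.277, adjusted p = 0.00506) in shp16 against shCont, 1.16 (SE 0.237, adjusted p = 0.0151) in shp16+shATR against shp16 and 2.61 (SE 0.266, adjusted p = 4.71e-05) in shp16+shATR against shCont. BMF, whose protein binds dynein light chains and the guardians, was at 1.854, 2.502 and 2.074 FPKM in shCont, at 2.433, 3.851 and 3.531 FPKM in shp16, and at 5.188, 5.416 and 4.415 FPKM in shp16+shATR. The shp16+shATR libraries lay above all others. Its log2 fold changes were 0.62 (adjusted p = 0.024), 0.62 (adjusted p = 0.0369) and 1.23 (adjusted p = 0.000233) in the same order. Between the knockdown groups, leaving out 1 library ended the call of HRK in 5 of 9 fits and that of BMF in 6 of 9, and in shp16 against shCont that of BMF in 3 of 9 and that of HRK in 0 of 9. Against shCont, both calls of shp16+shATR held in every fit. BOK, an effector relative, was lower in shp16+shATR than in shCont (-0.43, adjusted p = 0.0292), a call lost without any 1 shp16+shATR library. The 3 relatives with too few counts to test were BCL2L10, BCL2L14 and BCL2L15.

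Among the genes of the apoptosome and the caspases, CASP6, an executioner caspase, was at 5.313, 5.441 and 5.498 FPKM in shCont, at 6.043, 5.688 and 4.716 FPKM in shp16, and at 2.761, 3.234 and 3.025 FPKM in shp16+shATR. The shp16+shATR libraries stood clear below the others. Its log2 fold change was -0.87 (adjusted p = 0.00913) between the knockdown groups, a call lost in 1 of the 9 fits that leave out 1 library, and -0.84 (adjusted p = 0.00293) in shp16+shATR against shCont. In the latter comparison CASP9, the initiator caspase of the apoptosome, rose (0.50, adjusted p = 0.00459) and CYCS, the gene of cytochrome c, fell (-0.58, adjusted p = 0.00158), and none of these 3 calls against shCont was lost on leaving out 1 library. In shp16 against shCont DFFA (0.35, adjusted p = 0.0427) and CASP9 (0.34, adjusted p = 0.0443) rose, each lost in 8 of the 9 fits. Without shCont 1, 2 of the 13 genes of this list rose and 5 fell between the knockdown groups, beside 1 and 1 with all libraries. Over all genes the called share there was 19.9% without shCont 1 and 6.22% with all libraries. Also without shCont 1, 2 rose and 0 fell in shp16 against shCont, and 3 rose and 3 fell in shp16+shATR against shCont. The shares of all genes called in these 2 comparisons were 25.9% and 33.3%.

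Of 7 inhibitor of apoptosis proteins, which block caspases, BIRC7, the melanoma-associated livin, fell in shp16 against shCont (-0.75, adjusted p = 0.0349, lost in 6 of the 9 fits that leave out 1 library). Between the knockdown groups 0 of the 7 were called by edgeR, with 0 at an unadjusted p under 0.05 and 0 by DESeq2, and against shCont 0 were called, with 1 lower at an unadjusted p under 0.05 and 0 by DESeq2. Without shCont 1 more of the 7 fell, 4 in shp16 against shCont, 1 between the knockdown groups and 3 in shp16+shATR against shCont, and 0 rose. Calls over all genes rose too, from 14.8% to 25.9%, from 6.22% to 19.9% and from 23.6% to 33.3% in the same order. Of 7 tested genes for death receptors and adaptors, FAS rose in shp16 against shCont (0.60, adjusted p = 0.0452, lost in 8 of the 9 fits, with adjusted p = 0.0505 without shCont 1) and in shp16+shATR against shCont (0.75, adjusted p = 0.0113, lost in 1 fit). TNFRSF10B, the TRAIL receptor DR5, fell in shp16+shATR against shCont (-0.52, adjusted p = 0.00786, lost in 0 fits). For shp16+shATR against shp16, 0 of these 7 were called by edgeR, with 1 higher and 1 lower at an unadjusted p under 0.05 and 1 higher by DESeq2. Without shCont 1, 1 of the 7 fell in shp16 against shCont, 1 rose and 1 fell between the knockdown groups, and 3 rose and 2 fell in shp16+shATR against shCont. These counts stand beside the same 25.9%, 19.9% and 33.3% of all genes. Of 8 genes for the turnover of MCL1 and the partners of the effectors at the outer membrane, FBXW7, a ubiquitin ligase subunit that targets MCL1, rose in shp16 against shCont (0.57, adjusted p = 0.0358, lost in 7 fits). The channel genes VDAC2, whose protein holds BAK, and VDAC3 fell in shp16+shATR against shp16 (-0.59, adjusted p = 0.0166, lost in 6 fits, and -0.64, adjusted p = 0.00574, lost in 0) and against shCont (-0.66, adjusted p = 0.00263, and -0.49, adjusted p = 0.00748, both lost in 0).

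**Figure D4:**
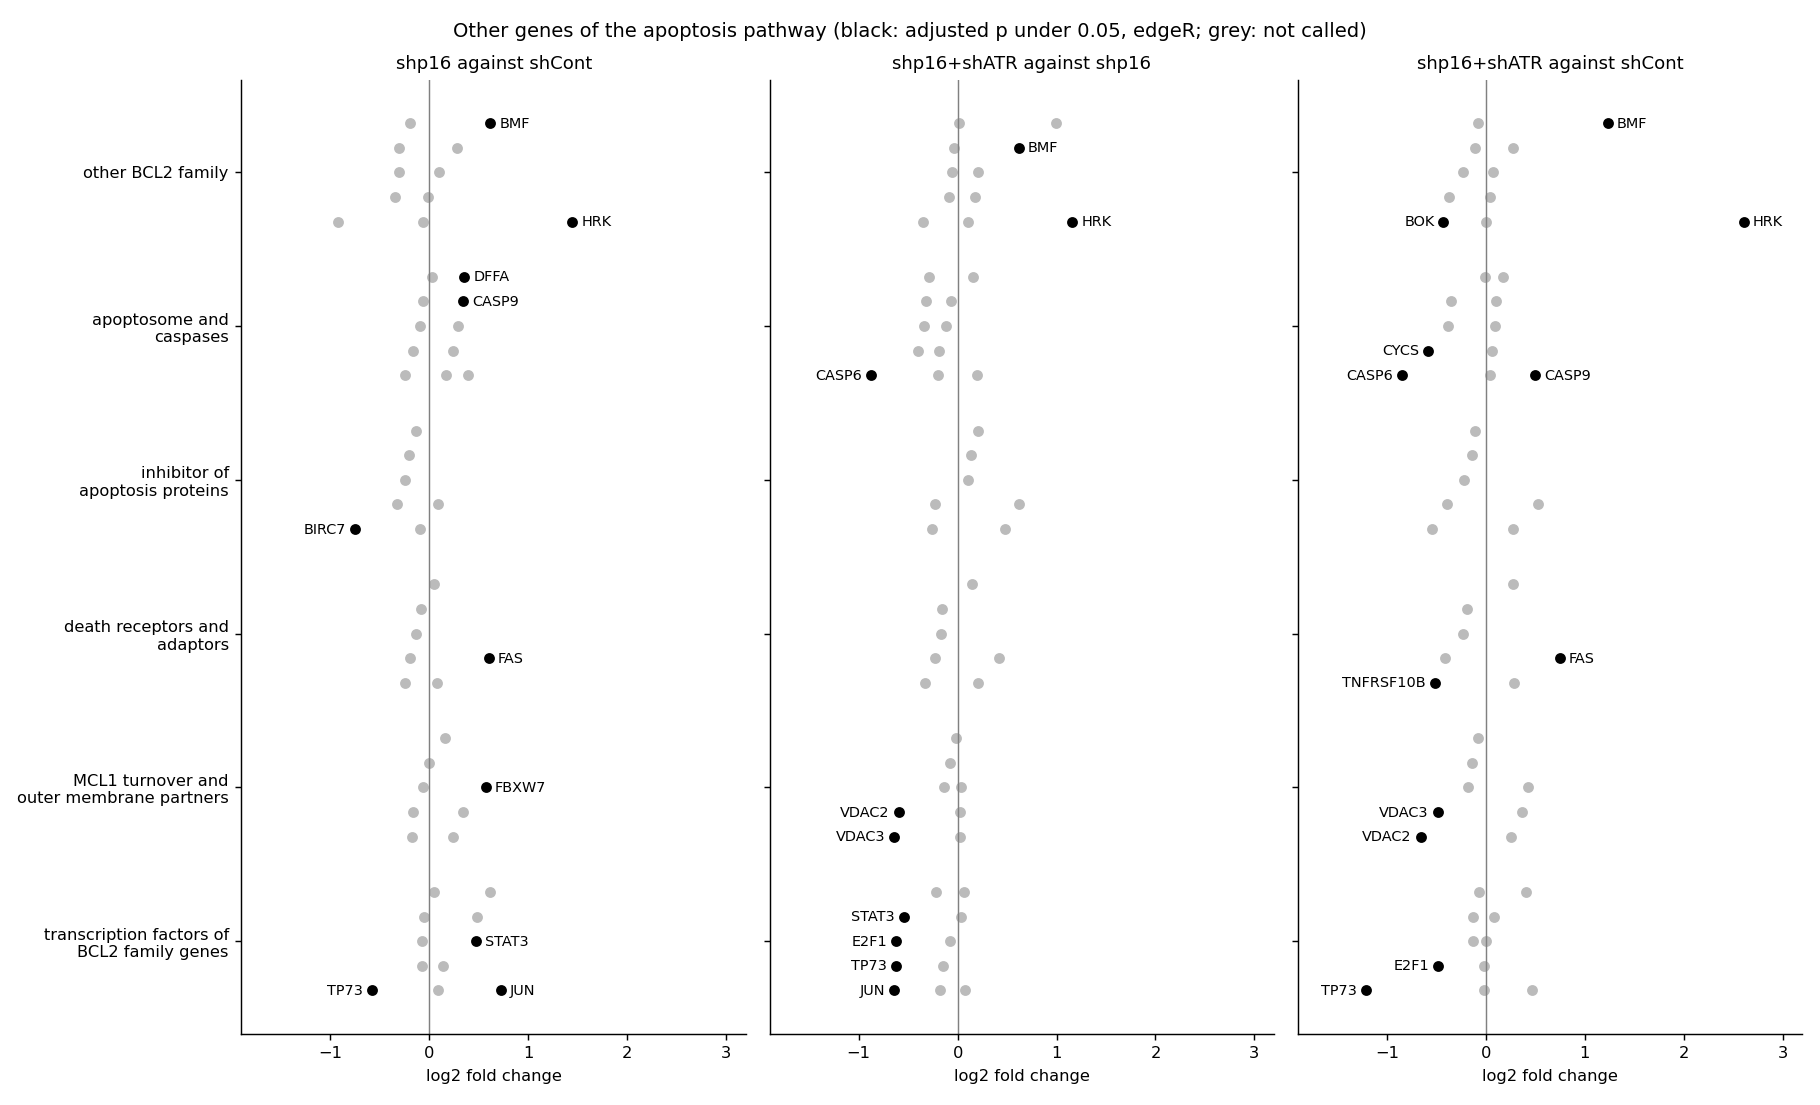
Log2 fold change (x axis) of tested genes of the apoptosis pathway outside the 10, by list (y axis), in the 3 comparisons. Black points have an adjusted p under 0.05 and carry their names. HRK and BMF are right of 0 in each panel, HRK at 2.61 in shp16+shATR against shCont.

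The last list held 12 transcription factors known to act on genes of the family. MITF, tied by background knowledge to BCL2A1, was at 108.6, 154.4 and 166.2 FPKM in shCont, at 160.6, 146.7 and 142.5 FPKM in shp16, and at 127.8, 127.8 and 133.4 FPKM in shp16+shATR. Its log2 fold change was 0.09 (SE 0.144, adjusted p = 0.737, edgeR) in shp16 against shCont and -0.06 (adjusted p = 0.716) without shCont 1. In shp16+shATR against shp16 it was -0.22 (adjusted p = 0.446), and -0.22 (adjusted p = 0.121) without shCont 1. In shp16+shATR against shCont it was -0.13 (adjusted p = 0.551), and -0.28 (adjusted p = 0.0549) without shCont 1. A link between MITF and the level of BCL2A1 was not tested. FOXO3, tied to BCL2L11, was at 4.175, 8.86 and 9.481 FPKM in shCont, at 10.35, 10.29 and 10.24 FPKM in shp16, and at 9.582, 9.679 and 10.1 FPKM in shp16+shATR. It had a log2 fold change of 0.48 (SE 0.217, adjusted p = 0.164) in shp16 against shCont and of 0.20 (adjusted p = 0.088) without shCont 1. FOXO1 had 0.62 (SE 0.294, adjusted p = 0.184), and 0.26 (adjusted p = 0.244) without shCont 1. Between the knockdown groups, where BCL2L11 rose, FOXO3 was at -0.08 (adjusted p = 0.884) and FOXO1 at -0.15 (adjusted p = 0.837). For shp16+shATR against shCont, FOXO3 was at 0.4 (adjusted p = 0.214) and FOXO1 at 0.47 (adjusted p = 0.284). A link between FOXO factors and the level of BCL2L11 was not tested. FOXO factors are controlled largely at the protein level, which was not measured here. JUN, an AP-1 factor, rose in shp16 against shCont (0.72, adjusted p = 0.00057) and fell in shp16+shATR against shp16 (-0.64, adjusted p = 0.00357), and leaving out 1 library ended neither call. STAT3 moved in the same directions (0.47, adjusted p = 0.0196, lost in 2 of the 9 fits, and -0.54, adjusted p = 0.0186, lost in 5). Against shCont, neither was called in shp16+shATR, with JUN at 0.08 (adjusted p = 0.608) and STAT3 at -0.07 (adjusted p = 0.691). The rise and the fall share the shp16 libraries, so they are not independent. TP73 fell in shp16 against shCont (-0.58, adjusted p = 0.00566, lost in 0), in shp16+shATR against shp16 (-0.63, adjusted p = 0.00934, lost in 2) and in shp16+shATR against shCont (-1.21, adjusted p = 3.11e-05, lost in 0). E2F1 fell in shp16+shATR against shp16 (-0.62, adjusted p = 0.0095, lost in 2) and against shCont (-0.48, adjusted p = 0.0104, lost in 2).

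For each of the 5 called genes, the 2 genes most like it were found by Pearson's r of log2 CPM over the 9 libraries, among 8306 genes with a mean of at least 5 FPKM. They were PLEKHA4 (0.9891) and CCDC104 (0.9875) for BCL2L1, FN1 (0.9947) and ALDH1A3 (0.9786) for MCL1, AC104655.3 (0.9938) and FBXW4 (0.9926) for BCL2A1, FZD7 (0.9876) and PAPSS1 (0.9869) for BCL2L11, and LXN (0.9882) and ATN1 (0.9827) for BID. The 9 points share 3 groups and the deviation of shCont 1, so these values describe a shared order of the libraries and carry no test.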

How the data were processed

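RNA from 9 libraries of SKMEL28 cells was sequenced at Novogene after library preparation with the NEBNext Ultra 2 kit. The authors deposited raw read counts per gene, with no normalization, and FPKM, which equalled each count scaled by gene length and library total within 4.22e-07. The submitters' processing notes name STAR 2.6.1 and DESeq2, and GRCh38, but the coordinates in the tables are those of GRCh37. The counting program and its strand setting are not given in the sources used here, so reads of overlapping genes may not be separated.

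The counts were tested with the quasi-likelihood test of edgeR 4.0.16 (R 4.3.3) after TMM normalization and filterByExpr, with all 9 libraries in 1 fit and 1 coefficient per group. P-values were adjusted by Benjamini-Hochberg over 15776 genes and called at 0.05, and all reported folds are from this fit. FPKM were used for levels, with mean and SD. DESeq2 1.42.0 and limma 3.58.1 on log2(FPKM + 1) were alternatives, and tables were made in python 3.11.15 with pandas 2.3.3 and numpy 2.4.6. The fit was tested on simulated data. A fit that corrects each gene for GC content and length was added after the data were seen. The 3 shp16+shATR count columns share 1 name, so those libraries are left out as a, b and c. Counts of 17314662 to 23588174 a library set the counting precision.

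Members and gene lists were chosen with earlier results of these data known. Named genes are the 10 members, CDKN2A, ATR, up to 4 called genes per list and comparison with the smallest adjusted p, and the 2 genes most like each called member. MITF, FOXO1, FOXO3, BIK and BAD were added after their values were seen, and KRT5, PTPRC, CD3E and the untested genes are named to account for the lists. Some listed genes are not reported here by name.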

Additional observations from a re-analysis of the deposited data

How the results depend on the processing

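Every call of a member kept its direction under every alternative run. Counts of calls moved more. In shp16 against shCont, 4 members and 2339 genes were called. With only the groups compared these were 2 and 1186, and on leaving out 1 library 2 to 6 members and 1344 to 4192 genes. With the GC and length trend removed (chosen after seeing the data) they were 6 and 3670. That edgeR fit also called BAK1 (0.587, adjusted p = 0.00191) and BBC3 (0.492, adjusted p = 0.0119). BAK1 was called by DESeq2 (adjusted p = 0.0407) and by edgeR with no filter on low counts (adjusted p = 0.0233) as well. In shp16+shATR against shp16, 1 member and 981 genes were called. DESeq2 gave 3 and 1508, upper-quartile normalization 2 members, no filter 3 members, only the groups compared 4 and 2878, and GC and length removal 3 and 2103. Library size alone and limma on log2(FPKM + 1) or log2(FPKM + 0.1) called 0 members, each with 3 at an unadjusted p under 0.05. Leaving out 1 library gave 0 to 4 members and 292 to 3223 genes. In shp16+shATR against shCont, 5 members and 3724 genes became 3 to 7 and 2354 to 5395. The cause was not tested, except that fits without a library or group hold fewer samples.

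Signs turned only for values that were not called with all 9 libraries, MCL1 among them, which was called at -0.229 without shCont 1. In shp16 against shCont, BAX went from -0.15 to 0.001 with GC and length removal, with ranges over single libraries left out of -0.293 to 0.045 for BAX, -0.229 to 0.015 for MCL1 and -0.062 to 0.21 for PMAIP1, and ATR went from 0.155 to -0.124 without shCont 1 (up to 0.329 without other libraries). In shp16+shATR against shp16, BBC3 (-0.01) was at 0.004 with DESeq2, 0.031 with upper-quartile normalization, 0.001 with at least 10 counts in every library, 0.023 and 0.027 with limma at pseudocounts of 1 and 0.1, and -0.188 to 0.143 without 1 library, and PMAIP1 at -0.063 to 0.165. In shp16+shATR against shCont, BCL2 (0.05) was at -0.064 with GC and length removal and at -0.142 to 0.163 without 1 library.

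Deviations of same-numbered libraries from their groups had correlations of -0.303 to 0.289 between groups. Pairs of unlike numbers were not compared, so whether the numbers pair libraries was not tested. With the replicate block, edgeR on shCont and shp16 called 1 member and 423 genes, and limma called 1513 genes in shp16 against shCont, and 0 members, with 3 at an unadjusted p under 0.05, and 481 genes in shp16+shATR against shp16, with BBC3 at 0.023.

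Over the members' fold changes, 495 alternatives kept direction and call, 43 lost and 23 gained it, and 19 changed sign. For CDKN2A, ATR and the called genes of the lists these numbers were 786, 169, 4 and 1.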
